A study of Homo sapiens with 12 samples.

Results

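The MYC, MAX and MXD network is a set of transcription factors that pair with each other through a helix-loop-helix leucine zipper and compete for the same DNA. Its 10 members MYC, MYCN, MYCL, MAX, MXD1, MXD3, MXD4, MXI1, MNT and MLX were chosen by symbol, and each has a row in both count tables, which hold 28008 genes per line. MYC, MYCN and MYCL are oncoproteins that need MAX as a partner to bind the E-box, a short palindromic DNA element, and to activate transcription. MXD1, MXI1 (also called MXD2), MXD3, MXD4 and MNT take MAX away from the MYC proteins and recruit the SIN3 histone deacetylase complex to the same element, so that they repress. MLX is a second hub, which pairs with MXD1, MXD4 and MNT and with the glucose-sensing factors MLXIP (MondoA) and MLXIPL (ChREBP). In neuroendocrine tumors the family is known for amplification or overexpression of its MYC genes, MYCN and MYCL among them.

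The transcripts were measured by RNA-seq in the pancreatic neuroendocrine tumor (pNET) lines QGP-1 and BON-1, both established human lines carrying tet-MUC1shRNA, each with 3 libraries from cells exposed for 7 days to 0.1% DMSO (vehicle) and 3 from cells exposed to 500 ng/mL doxycycline (DOX). All 4 groups carry the same puromycin-selected vector, in which DOX switches on a single hairpin against MUC1, the transcript of a transmembrane mucin whose MUC1-C subunit the study silenced. No library of cells with a control hairpin was analysed here, so the effect of the hairpin and that of DOX itself cannot be told apart. QGP-1 cells grew in RPMI 1640 and BON-1 cells in DMEM/F-12, and a difference between the lines cannot be told apart from one between these media. The labels number the replicates of each group, and the study's methods describe cultures in triplicate. They are taken here as cultures of 1 transduced population per line, and the p-values measure the spread between such cultures.

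The QGP-1 libraries held 38224144 to 50525926 counts and the BON-1 libraries 15981954 to 28484324. The log2 fold change of MUC1, DOX against vehicle, was −2.91 in QGP-1 cells (adjusted p = 8.24e-07) and −2.79 in BON-1 cells (edgeR adjusted p = 6.51e-11), and its DOX libraries lay below its vehicle libraries in both lines. Of 10 neuroendocrine markers, 10 in QGP-1 and 9 in BON-1 cells reached a mean of 1 CPM (read counts scaled to a common library size) with vehicle. Their summed level went from 5829–6652 CPM with vehicle to 6573–7185 with DOX for QGP-1, and from 11797–15166 to 9336–9834 for BON-1 cells. The BON-1 sum was dominated by CHGA, the granule protein chromogranin A, which went from a mean of 8104 to 2936 CPM (log2 fold change −1.46). Of the 9 markers tested there, 3 were called lower (CHGA, SYP and PCSK1) and 3 higher (SCG2 at 0.45, SCG3 at 0.27 and SCGN at 0.21). Of the 10 tested in QGP-1 cells, 1 was lower and 2 were higher. Among all genes tested, 18.3% were called lower and 17.0% higher in BON-1 cells, and 17.7% and 17.3% in QGP-1 cells. Of 5 epithelial markers, KRT8, KRT18 and KRT19 were called higher in BON-1 cells (0.62, 0.58 and 0.79) and 0 were called in QGP-1 cells. Of 11 markers of immune, stromal, endothelial, liver and acinar cells, 7 in QGP-1 and 5 in BON-1 cells had at most 10 counts in every library, and 2 and 0 were at 0 throughout. Their summed level was 87.9–155 CPM with vehicle and 32.0–43.1 with DOX in QGP-1 cells, against 61.1–73.3 and 71.5–78.7 in BON-1 cells. Most of the QGP-1 sum was PRSS1, an acinar trypsinogen, whose mean went from 121 to 34.0 CPM (log2 fold change −1.83). In BON-1 cells PRSS1 fell from 38.6 to 23.0 CPM while the macrophage marker CD68 rose from 25.3 to 50.6 CPM, both called. The part of other cells in the results was not tested. In bulk RNA, fewer cells of a kind and less RNA per cell cannot be told apart.

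Some members of the network changed with DOX in each line. At an adjusted p below 0.05 from edgeR's quasi-likelihood test over all genes, 6 of the 10 members were called in QGP-1 cells (MYC, MAX and MXD1 higher, MYCL, MXD3 and MLX lower), beside 35.0% of the 15089 genes tested. In BON-1 cells 4 of the 10 were called (MYC, MXD1 and MXI1 higher, MYCN lower), a share close to the 35.3% of the 14625 genes tested. MYC and MXD1 were called in both lines and 8 members in either, whereas the 13535 genes that both lines tested held 2273 called in both and 7467 in either. By size, the response was led by MYCN in BON-1 cells, which fell 6.59-fold. Each other member moved by a log2 value of 0.76 or less in either direction.

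**Figure D1:**
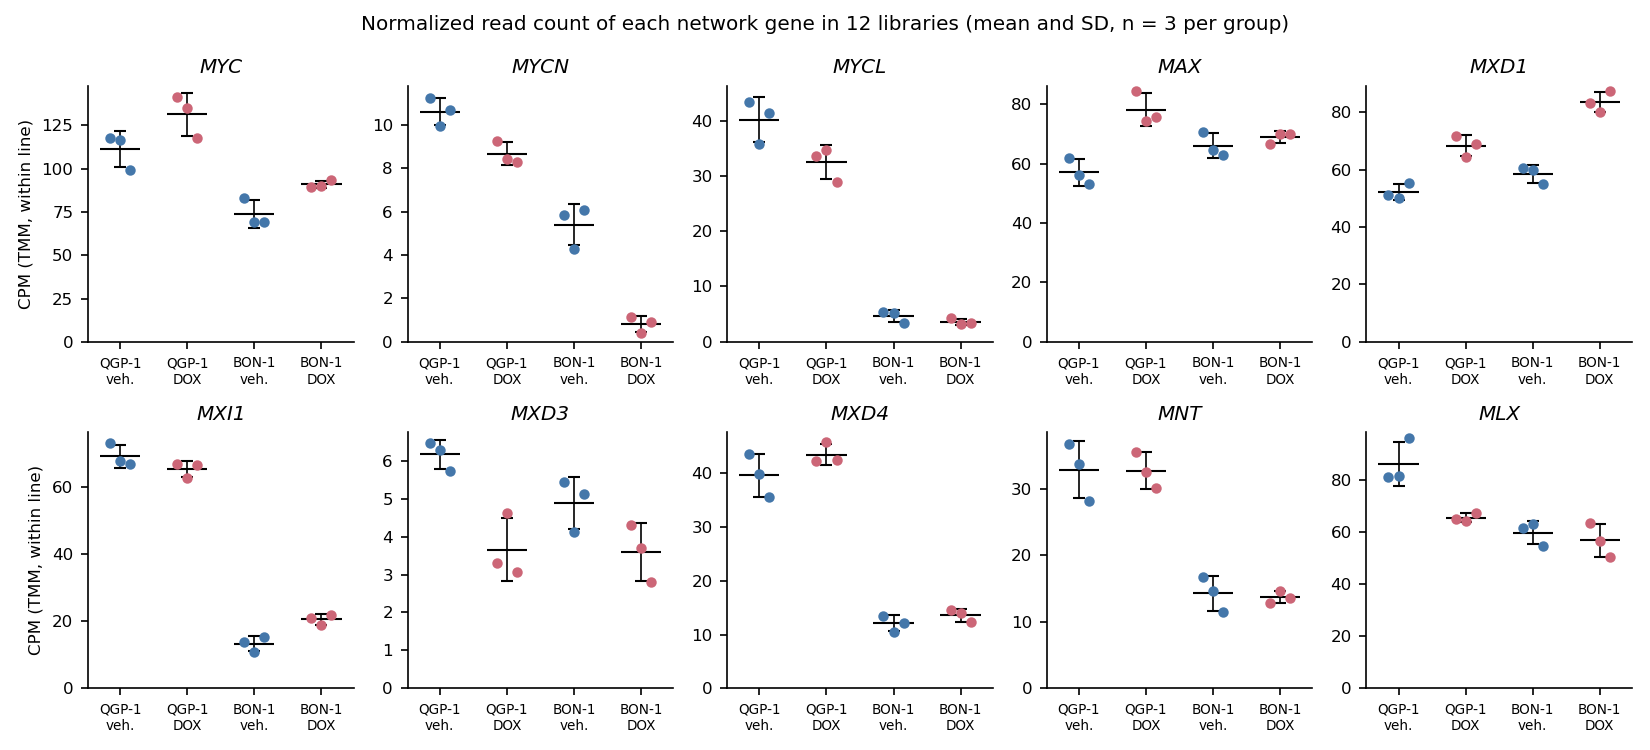
Normalized level of the 10 network genes, 1 panel per gene, in CPM after TMM scaling within each line. Points are libraries with vehicle (blue) or DOX (red), with mean and SD (n = 3); the MYCN level in BON-1 cells with DOX, 0.829 CPM, stands far below that with vehicle, 5.41 CPM.

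**Figure D2:**
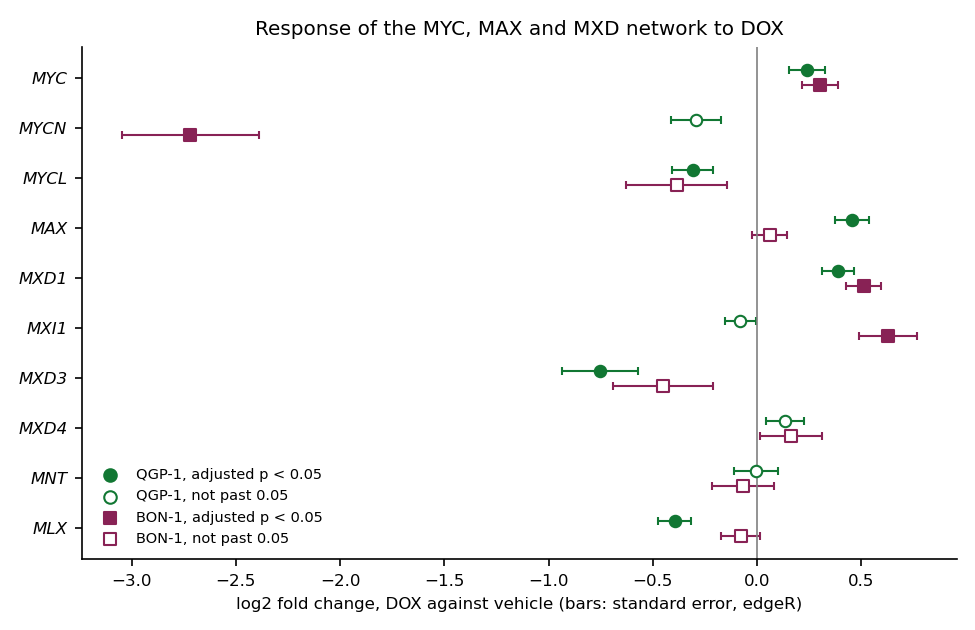
Log2 fold change of each member with DOX against vehicle, in QGP-1 (green circles) and BON-1 (purple squares) cells. Bars are standard errors from edgeR and filled symbols passed an adjusted p of 0.05. On the TPM scale the signs of MYCN, MYCL, MXI1, MNT and MLX in QGP-1 and of MYC, MAX and MXD4 in BON-1 cells turn, as the text gives.

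MYCN, the neural member of the MYC proteins, spans bases 15940550 to 15947007 of chromosome 2 (GRCh38, plus strand). In BON-1 cells its raw counts were 165, 97 and 109 with vehicle and 18, 8 and 18 with DOX. Scaled, these were 5.86, 4.30 and 6.06 CPM with vehicle and 1.16, 0.416 and 0.916 CPM with DOX, so that the highest DOX library lay well below the lowest vehicle library. The log2 fold change was −2.72 (standard error, SE, of 0.33, with an edgeR adjusted p = 2.21e-07). It was called in 6 of the 6 fits that left out 1 BON-1 library, with values from −3.01 to −2.40. In QGP-1 cells MYCN was at 11.2, 9.95 and 10.7 CPM with vehicle and at 9.27, 8.44 and 8.30 CPM with DOX, groups that did not overlap either. Its log2 fold change there was −0.29 (SE 0.12), which missed the threshold (edgeR adjusted p = 0.0740). The difference between the lines was itself tested, and the BON-1 minus the QGP-1 response was −2.42 on the log2 scale (SE 0.32, interaction adjusted p = 9.18e-06 by edgeR). MYCNOS, the antisense gene that overlaps MYCN, had at most 2 counts in any BON-1 library and at most 12 in any QGP-1 library.

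The sequence around the start of MYCN is shown because this gene carries the widest change of the network. Promoter entries of RefSeq (GRCh38.p14), which run from 250 bases before to 50 after a start, were found for 9 of the 10 members, 12 promoters in all. For MYCN the entry is chr2:15940300-15940599 on the plus strand, with capitals for 2 overlapping letter motifs of the E2F type, TTTGGCGC at base −176 from the start and TTTCGCGC read on the other strand at base −172.
MYCN promoter: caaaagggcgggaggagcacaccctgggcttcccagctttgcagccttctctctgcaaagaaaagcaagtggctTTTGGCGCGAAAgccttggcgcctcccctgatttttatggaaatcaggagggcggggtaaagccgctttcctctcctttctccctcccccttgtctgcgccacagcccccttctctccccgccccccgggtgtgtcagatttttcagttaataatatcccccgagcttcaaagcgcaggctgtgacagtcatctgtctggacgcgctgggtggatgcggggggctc
Searched on both strands, TTTGGCGC is held by 0.652% and TTTCGCGC by 0.515% of the 35116 promoters in the table, and the MYCN promoter is the only one of the members to hold either. E2F1, a cell cycle factor of the family that binds such motifs, had a log2 fold change of −0.52 in QGP-1 cells (adjusted p = 0.000573) and of −0.05 in BON-1 cells (edgeR adjusted p = 0.713). A match of letters is a description and not evidence of binding.

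MYC, the founding member, is encoded on chromosome 8 and was, per length, the most abundant MYC protein transcript in each library. In QGP-1 cells it was at 118, 117 and 99.1 CPM with vehicle and 141, 135 and 118 CPM with DOX, and the lowest DOX library did not clear the highest vehicle library. In BON-1 cells it was at 83.0, 69.0 and 69.0 CPM with vehicle and 89.5, 90.2 and 93.2 CPM with DOX, with each DOX library above each vehicle library. The log2 fold changes were 0.24 in QGP-1 cells (SE 0.09, edgeR adjusted p = 0.0446) and 0.30 in BON-1 cells (SE 0.09, edgeR adjusted p = 0.00657). When QGP-1 libraries were left out in turn, the call was kept only without DOX replicate 3 (0.31). It was lost at 0.28, 0.28 and 0.16 without vehicle replicates 1, 2 and 3, and at 0.19 and 0.22 without DOX replicates 1 and 2. For BON-1 cells it was lost when vehicle replicate 2 or vehicle replicate 3 was left out, at 0.25 in each fit (adjusted p = 0.0578 and 0.0574, edgeR). The responses of the lines differed by 0.07 (SE 0.13, interaction adjusted p = 0.771 by edgeR), so no difference was detectable.

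MYCL, the member first found in small cell lung cancer, lies on chromosome 1 from 39895428 to 39902256 and was far more abundant in QGP-1 than in BON-1 cells. Its level in QGP-1 cells was 43.4, 35.7 and 41.4 CPM with vehicle and 33.7, 34.7 and 28.9 CPM with DOX, with no overlap of the groups. The log2 fold change was −0.31 (SE 0.10, edgeR adjusted p = 0.0268). This call was lost without vehicle replicate 1 (−0.25), vehicle replicate 3 (−0.29) or DOX replicate 3 (−0.24). In BON-1 cells MYCL was at 3.44–5.33 CPM with vehicle and 3.22–4.24 CPM with DOX, which overlapped, and its log2 fold change of −0.39 (SE 0.24) missed the threshold (edgeR adjusted p = 0.227). Its BON-1 libraries held 62 to 150 raw counts.

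MAX, the shared partner, lies on the minus strand of chromosome 14 from 65006174 to 65102695. In QGP-1 cells it rose from 61.8, 56.4 and 53.1 CPM with vehicle to 84.6, 74.4 and 75.7 CPM with DOX, a range wholly above that of vehicle. The log2 fold change was 0.46 (SE 0.08, edgeR adjusted p = 0.000838), and it was called in 6 of 6 fits without 1 library, from 0.40 to 0.52. In BON-1 cells MAX was at 70.8, 64.6 and 62.8 CPM with vehicle and 66.7, 70.2 and 70.0 CPM with DOX, and these ranges overlapped. The BON-1 log2 fold change was 0.06 (SE 0.08, edgeR adjusted p = 0.611). The lines differed in this response by −0.38 (SE 0.12, interaction adjusted p = 0.0307 by edgeR). That call was lost without BON-1 vehicle replicate 1 (−0.35), QGP-1 vehicle replicate 2 (−0.38) or QGP-1 vehicle replicate 3 (−0.33).

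Of the 5 repressors that pair with MAX, MXD1 rose in both lines. MXD1, a factor induced when cells differentiate and leave the cell cycle, was at 51.3, 50.1 and 55.3 CPM with vehicle and at 71.7, 64.6 and 69.1 CPM with DOX in QGP-1 cells. In BON-1 cells the values were 60.6, 60.0 and 55.1 CPM with vehicle and 83.2, 80.2 and 87.3 CPM with DOX. In each line the DOX libraries lay above the vehicle libraries, by a log2 fold change of 0.39 in QGP-1 (SE 0.08, edgeR adjusted p = 0.00156) and 0.51 in BON-1 cells (SE 0.08, edgeR adjusted p = 1.95e-05). Both calls held in each of the 6 fits that left out 1 library of the line. The responses differed by 0.13 (SE 0.12, interaction adjusted p = 0.478 by edgeR). MXD1 was the one member that was called in the same direction in both lines with no overlap of groups.

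MXI1, a repressor first described as a MAX interactor, responded in BON-1 cells. There it was at 13.7, 10.9 and 15.4 CPM with vehicle and 20.9, 18.9 and 21.9 CPM with DOX, with each DOX library above each vehicle library. The log2 fold change was 0.63 (SE 0.14, edgeR adjusted p = 0.000706), called in 6 of 6 fits without 1 library. In QGP-1 cells, where its level was 66.9–73.2 CPM with vehicle and 62.7–67.0 CPM with DOX, the log2 fold change was −0.08 (SE 0.07, edgeR adjusted p = 0.435). The difference of 0.72 between the lines passed the test (SE 0.15, interaction adjusted p = 0.00133 by edgeR) and was called in 12 of 12 fits that left out 1 library. MXI1 is also known as a target of hypoxia-inducible factor.

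MXD3, the repressor that is known to be high in S phase, was the member with the widest change in QGP-1 cells. Its counts there were 247, 272 and 285 with vehicle and 159, 182 and 132 with DOX, or 6.48, 6.29 and 5.73 CPM against 3.30, 4.61 and 3.07 CPM. No DOX library reached the lowest vehicle library, and the log2 fold change was −0.76 (SE 0.18, edgeR adjusted p = 0.00544). In BON-1 cells the ranges of 4.12–5.43 CPM with vehicle and 2.80–4.30 CPM with DOX overlapped, and the log2 fold change of −0.45 (SE 0.24) missed the threshold (edgeR adjusted p = 0.145). The responses of the lines differed by 0.31 (SE 0.30, interaction adjusted p = 0.530 by edgeR), so a difference between them was not shown. MXD3 shares exon positions with RAB24 on its own strand and with PRELID1 on the other, which had log2 fold changes of 0.17 (adjusted p = 0.452) and −0.23 (edgeR adjusted p = 0.0236) in QGP-1 cells.

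MXD4 and MNT were called in neither line. MXD4, which like MXD1 belongs to the factors of differentiating cells, gave a log2 fold change of 0.13 for QGP-1 (SE 0.09) and 0.16 for BON-1 cells (SE 0.15). MNT, the most widely expressed of the repressors, stood at −0.01 (SE 0.11) and −0.07 (SE 0.15). Their adjusted p-values from edgeR were 0.276 and 0.421 for MXD4, and 0.977 and 0.764 for MNT.

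MLX, the hub of the MLXIP and MLXIPL branch, lies on chromosome 17 from 42567072 to 42573239 and fell in QGP-1 cells. It was at 81.0, 81.6 and 95.9 CPM with vehicle and at 65.0, 64.2 and 67.5 CPM with DOX, so that the groups were clearly apart. The log2 fold change was −0.40 (SE 0.08, edgeR adjusted p = 0.00186), called in 6 of 6 fits without 1 library. In BON-1 cells MLX was at 54.7–63.1 CPM with vehicle and 50.3–63.3 CPM with DOX, with a log2 fold change of −0.08 (SE 0.09, edgeR adjusted p = 0.558). The difference of 0.33 between the lines missed the threshold (SE 0.13, interaction adjusted p = 0.0886 by edgeR).

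Across the 10 members, the DOX and vehicle libraries did not overlap for 6 in QGP-1 cells (2 higher, 4 lower), beside 46.7% of all genes tested (23.5% higher, 23.2% lower). In BON-1 cells they did not overlap for 4 members (3 higher, 1 lower), beside 46.3% of all genes (22.4% higher, 23.9% lower). The response differed between the lines for 3 of the 10 (MYCN, MAX and MXI1), beside 16.7% of the 16598 genes in that fit. Over all genes, 7.92% had a lower and 8.80% a higher response in BON-1 than in QGP-1 cells.

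The E-box itself, CACGTG, is shown for the 3 members whose promoter entries hold it because it is the element that the network's own proteins are known to bind. MXD4 has it at base −238 from its start, MNT at −193 and MLX at −50, each read 5′ to 3′ on the strand of the gene (chr4:2262322-2262359 minus, chr17:2401228-2401273 minus and chr17:42567030-42567075 plus) with the E-box in capitals.
MXD4: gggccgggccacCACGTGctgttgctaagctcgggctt
MNT: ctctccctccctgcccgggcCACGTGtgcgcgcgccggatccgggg
MLX: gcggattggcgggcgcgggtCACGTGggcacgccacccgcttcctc
These are 3 of the 12 promoters, beside 7.26% of all 35116, and 1 of the 3 genes, MLX, was called in 1 line. The related element CACGCG, searched on both strands, was in the MXD3 promoter and in 1 of 3 MXI1 promoters, beside 11.4% of all promoters. Among genes with a promoter entry, CACGTG was in 11.2% of those lower and 11.4% of those higher in QGP-1 cells and in 12.9% of those not called. For BON-1 cells these shares were 11.6%, 11.7% and 12.8%. In both lines the share was slightly lower among called genes, a difference that was not tested.

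With vehicle, most members of the network differed in level between the lines, as did most genes. Of the 10 members 7 were called as differing, a share near the 77.5% of the 15835 genes tested. All 7 were lower in BON-1 cells, where 38.0% of all genes were lower and 39.4% higher. MYCL stood farthest apart, at 41.2 ± 4.12 CPM (SD, n = 3) in QGP-1 and 4.56 ± 1.08 (SD, n = 3) in BON-1 cells, 8.68-fold. MXI1 followed at 71.0 ± 3.52 and 12.9 ± 2.13 CPM (SD, n = 3), 5.36-fold, and then MXD4 at 3.36-fold, MNT at 2.35-fold, MYCN at 2.02-fold, MYC at 1.55-fold and MLX at 1.48-fold. The adjusted p-values of these 7 lay between 3.16e-14 and 9.28e-06 (edgeR), and all 7 were called in 6 of 6 fits without 1 library. MAX, MXD1 and MXD3 were not called, with log2 differences of 0.17, 0.12 and −0.37, BON-1 minus QGP-1 (SEs 0.08, 0.08 and 0.18). These levels are CPM scaled over all 12 libraries, and a further difference between the lines is the deeper sequencing of QGP-1 cells.

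To compare members with each other, the deposited TPM values, which are divided by gene length, were set as a ratio to the TPM of MAX in the same library. In QGP-1 cells with vehicle the order was MLX at 1.84, MYC at 1.26, MAX at 1, MXI1 at 0.941, MXD4 at 0.547, MXD1 at 0.475, MYCL at 0.416, MNT at 0.346, MYCN at 0.186 and MXD3 at 0.103 TPM per TPM of MAX. The libraries of neighbours in this order overlapped for MXD4 with MXD1 and for MXD1 with MYCL, and for no other pair of neighbours. In BON-1 cells with vehicle MLX stood at 1.09, MAX at 1, MYC at 0.723, MXD1 at 0.458, MXI1 at 0.157, MXD4 at 0.144, MNT at 0.130, MYCN at 0.0819, MXD3 at 0.0708 and MYCL at 0.0416. Here MXI1 overlapped with MXD4, MXD4 with MNT, and MYCN with MXD3. MLX, MYC and MAX thus led in both lines, MXD1 came next in BON-1 cells and MXI1 in QGP-1 cells, and MYCL was last in BON-1 cells.

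**Figure D3:**
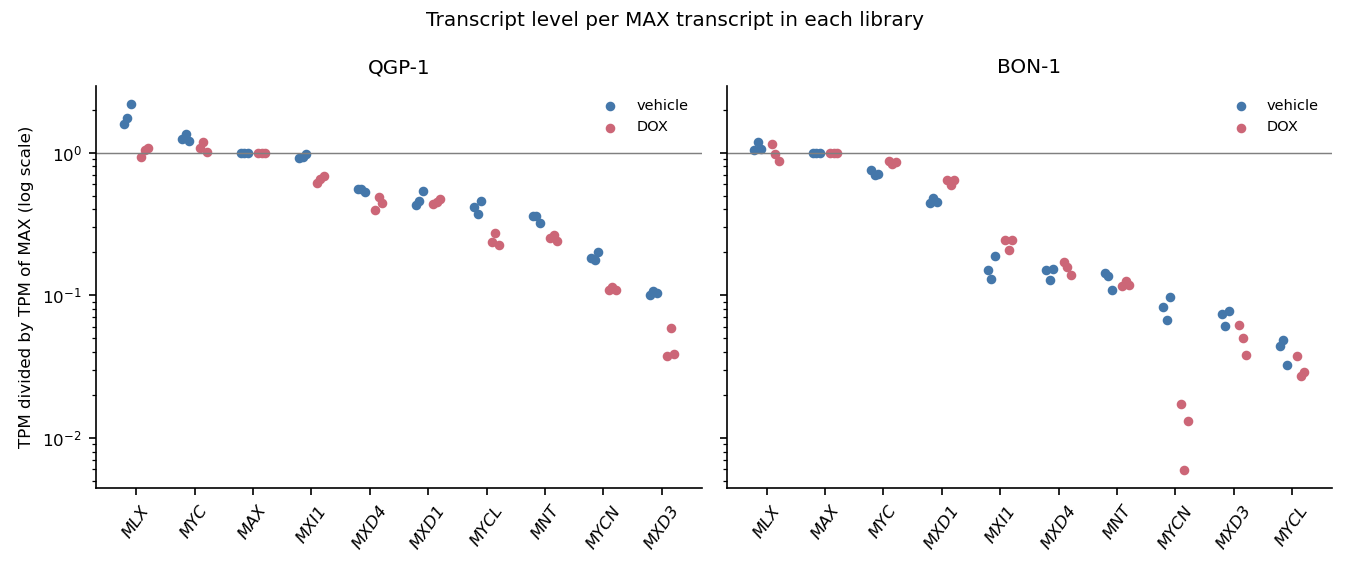
TPM of each member divided by the TPM of MAX in the same library, on a log axis, ordered by the vehicle mean of each line. Points are libraries with vehicle (blue) or DOX (red); MYCN in BON-1 cells drops from 0.0666–0.0963 to 0.00592–0.0173, and the lower ratios in QGP-1 cells with DOX include the rise of MAX itself.

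Summed over the MYC proteins, the transcripts were mostly MYC. In BON-1 cells MYC made up 84.7–85.8% of the summed TPM of MYC, MYCN and MYCL with vehicle and 94.1–96.2% with DOX. MYCN made up 8.23–11.4% with vehicle and 0.682–1.87% with DOX. In QGP-1 cells the MYC share was 64.7–71.0% with vehicle and 75.1–75.9% with DOX, while MYCN went from 9.31–10.7% to 7.23–8.16% and MYCL from 19.7–24.6% to 16.4–17.5%. In both lines the shares of MYC and MYCN did not overlap between vehicle and DOX, nor did that of MYCL in QGP-1 cells. The shares add up to the whole in each library, so lower shares of MYCN and MYCL raise that of MYC by construction.

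The summed TPM of MXD1, MXI1, MXD3, MXD4 and MNT was 1.08–1.17 times that of the MYC proteins in BON-1 cells with vehicle and 1.30–1.33 times with DOX, which did not overlap. In QGP-1 cells these ratios were 1.27–1.32 and 1.21–1.39, which did. Relative to MAX, the repressor sum was 2.36–2.47 in QGP-1 cells with vehicle and 1.73–1.91 with DOX, and in BON-1 cells 0.936–0.982 and 1.13–1.24. The DOX libraries thus lay below the vehicle libraries in QGP-1 cells, where MAX rose, and above them in BON-1 cells, where MXD1 and MXI1 rose. These sums are described without a test.

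**Figure D4:**
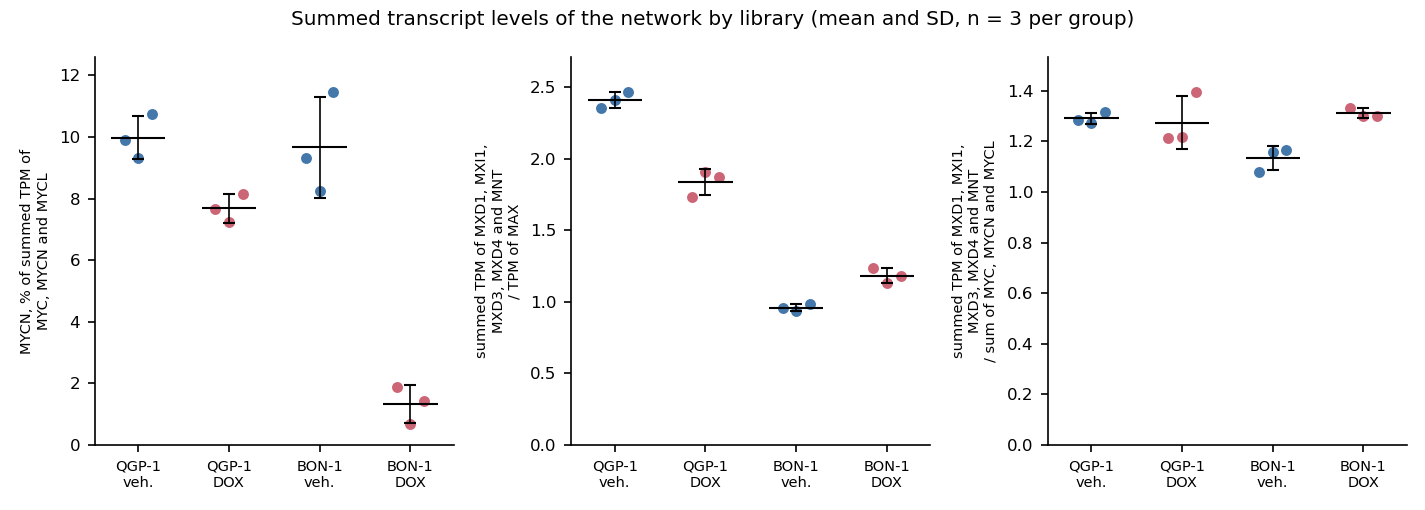
Summed transcript levels in each library with mean and SD (n = 3), as the percentage of MYCN among the MYC proteins (left), the repressor sum per TPM of MAX (middle) and the repressor sum per summed TPM of MYC proteins (right). The repressor sum per MAX lies lower with DOX for QGP-1 and higher for BON-1 cells, and MYCN is at 0.682–1.87% of the MYC protein transcripts in BON-1 cells with DOX.

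Outside the 10 members, the other partners of MAX and MLX are MGA, MLXIP and MLXIPL. Where a gene of this or a following list is said to rise, fall or stand at a value, that value is its log2 fold change with DOX. MLXIPL, which senses glucose and drives lipid synthesis genes, fell in both lines. Its counts were 76, 138 and 157 with vehicle and 61, 44 and 60 with DOX in QGP-1 cells, and 253, 261 and 235 against 115, 132 and 92 in BON-1 cells. The log2 fold changes were −1.14 (SE 0.27, edgeR adjusted p = 0.00450) and −0.83 (SE 0.19, edgeR adjusted p = 0.00120), with no overlap of groups in either line. MGA, a MAX partner of a variant polycomb complex, rose by 0.24 in QGP-1 cells (adjusted p = 0.00946) and stood at −0.07 in BON-1 cells (edgeR adjusted p = 0.470). MLXIP was called in neither line, at 0.18 and 0.06 (adjusted p = 0.214 and 0.613, edgeR).

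Of 4 genes known to be induced by MLX with MLXIP or MLXIPL, 3 could be tested in each line, and 2 were higher and 0 lower in each. Over all genes tested, 17.3% were higher and 17.7% lower in QGP-1 cells, and 17.0% and 18.3% in BON-1 cells. TXNIP, an arrestin-like inhibitor of glucose uptake, rose from 439, 426 and 378 CPM to 620, 582 and 516 CPM in QGP-1 cells. In BON-1 cells it rose from 244, 256 and 241 CPM to 503, 452 and 474 CPM. These are log2 fold changes of 0.47 (adjusted p = 0.000545) and 0.95 (edgeR adjusted p = 1.02e-10). Its paralog ARRDC4 stood at 0.02 in QGP-1 (adjusted p = 0.836) and rose by 0.57 in BON-1 cells (edgeR adjusted p = 3.40e-06), and KLF10 rose by 0.37 in QGP-1 (adjusted p = 0.00157) and stood at 0.03 in BON-1 cells (edgeR adjusted p = 0.816). PKLR, a pyruvate kinase of liver, was filtered out in both lines, with at most 1 count in any QGP-1 library and at most 22 in any BON-1 library. The median log2 fold change of the 3 genes was 0.37 in QGP-1 and 0.57 in BON-1 cells, beside −0.01 over all genes tested in each line.

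The cofactors that MYC recruits, 18 genes of acetyltransferase, chromatin remodelling and elongation complexes, gave 1 lower and 6 higher in QGP-1 cells and 5 lower and 0 higher in BON-1 cells. For comparison, 17.7% of all genes were lower and 17.3% higher in QGP-1 cells, and 18.3% lower and 17.0% higher in BON-1 cells. Those higher in QGP-1 cells included the scaffold TRRAP at 0.53 (adjusted p = 0.00222) and the acetyltransferase EP300 at 0.50 (edgeR adjusted p = 0.00146), while the helicase RUVBL2 fell by 0.41 on the log2 scale (edgeR adjusted p = 0.00683). In BON-1 cells the helicase RUVBL1 fell by 0.77 (adjusted p = 1.16e-06) and SMARCB1, a core subunit of the BAF remodeller, by 0.71 (edgeR adjusted p = 5.34e-06). The medians of the list were −0.01 and −0.10.

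The SIN3 complex that the MXD proteins recruit gave 1 lower and 5 higher of 18 genes in QGP-1 cells, and 2 lower and 3 higher of 18 in BON-1 cells. Its histone deacetylase HDAC1 fell by 0.32 in QGP-1 cells (edgeR adjusted p = 0.0365), where the subunits ARID4A and SUDS3 rose by 0.43 and 0.40 (adjusted p = 0.00148 and 0.00105, edgeR). In BON-1 cells ING1 and RBBP4 fell by 0.37 and 0.24 (adjusted p = 0.0340 and 0.0102, edgeR), and SIN3B and ARID4A rose by 0.31 and 0.30 (adjusted p = 0.0338 and 0.0101, edgeR). The list medians were 0.16 and 0.01. Beside the counts of this list, 17.7% of all genes were lower and 17.3% higher in QGP-1 cells, and 18.3% and 17.0% in BON-1 cells.

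Among 19 genes that stabilise or degrade MYC proteins, 2 were lower and 8 higher in QGP-1 cells and 3 were lower and 3 higher in BON-1 cells. The deubiquitinase USP36 and the ubiquitin ligase subunit BTRC rose in QGP-1 cells, by 0.56 and 0.46 (adjusted p = 0.000162 and 0.000565, edgeR), while the phosphatase subunit PPP2R5A fell by 0.37 (edgeR adjusted p = 0.00227). In BON-1 cells the mitotic kinases PLK1 and AURKA, which are known to stabilise the MYCN protein, fell by 0.64 and 0.47 (adjusted p = 5.35e-07 and 1.55e-05, edgeR). There the kinase GSK3B and the phosphatase PPP2CA rose by 0.34 and 0.20 (adjusted p = 0.00158 and 0.0461, edgeR). The list medians were 0.09 in QGP-1 and 0.00 in BON-1 cells. The shares over all genes were 17.7% lower and 17.3% higher in QGP-1 cells, and 18.3% and 17.0% in BON-1 cells.

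Of 14 tested regulators of MYC transcription, 3 were lower and 3 higher in QGP-1 cells and 5 lower and 3 higher in BON-1 cells. The shares over all genes were 17.7% lower and 17.3% higher in QGP-1 cells, and 18.3% and 17.0% in BON-1 cells. Medians of the list were −0.14 and −0.15. APC, a brake on beta-catenin, rose in both lines, by 0.54 and 0.62 (adjusted p = 2.11e-05 and 4.51e-07, edgeR). In QGP-1 cells E2F1 fell by 0.52 and the far-upstream element factor FUBP1 by 0.26, and the insulator protein CTCF rose by 0.29 (adjusted p = 0.000573, 0.0129 and 0.0119, edgeR). In BON-1 cells CTNNB1, which encodes beta-catenin, fell by 0.58 and the RNA-binding protein HNRNPK by 0.36, and KLF4 rose by 0.43 (adjusted p = 8.12e-07, 0.000346 and 0.00304, edgeR).

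Genes that MYC proteins are known to induce were called in both directions in QGP-1 cells and mostly lower in BON-1 cells, a contrast that was tested for single genes alone. Of 39 tested in QGP-1 cells, 7 were lower and 9 higher with a median log2 fold change of 0.07. Of the 38 that could be tested for BON-1 cells 12 were lower, 2 were higher and 24 were not called, and the median was −0.17. Among all genes tested, 17.7% were lower and 17.3% higher in QGP-1 cells, and 18.3% and 17.0% in BON-1 cells. LDHA, the enzyme that makes lactate, fell in both, by 0.97 in QGP-1 cells and by 1.14 in BON-1 cells (adjusted p = 4.31e-07 and 3.41e-12, edgeR). In QGP-1 cells the helicase subunit MCM5 fell by 0.58, while spermidine synthase SRM and the RNA polymerase I subunit POLR1B rose by 0.46 each (adjusted p = 6.68e-05, 0.00287 and 0.000144, edgeR). In BON-1 cells the telomerase gene TERT fell by 0.80, and the transferrin receptor TFRC and the nucleolar protein GNL3 rose by 0.26 and 0.24 (adjusted p = 0.0462, 0.0120 and 0.0192, edgeR).

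Genes that MYC proteins are known to repress numbered 12 tested in QGP-1 cells, with 3 lower and 2 higher, and 11 in BON-1 cells, with 1 lower and 5 higher. Beside these counts, 17.7% of all genes were lower and 17.3% higher in QGP-1 cells, and 18.3% and 17.0% in BON-1 cells. The medians of the repressed genes were −0.02 and 0.24. The cyclin-dependent kinase inhibitor CDKN1C fell by 1.26 in QGP-1 cells and CDKN2B rose by 0.80, as did BTG2 by 0.33 (adjusted p = 0.000336, 3.68e-05 and 0.00520, edgeR). NDRG2, a differentiation gene, fell in both lines, by 0.81 and 1.01 (adjusted p = 0.000515 and 8.10e-09, edgeR). In BON-1 cells the stress gene GADD45B and the antiproliferative gene BTG1 rose by 0.70 and 0.52 (adjusted p = 0.0154 and 2.95e-06, edgeR).

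**Figure D5:**
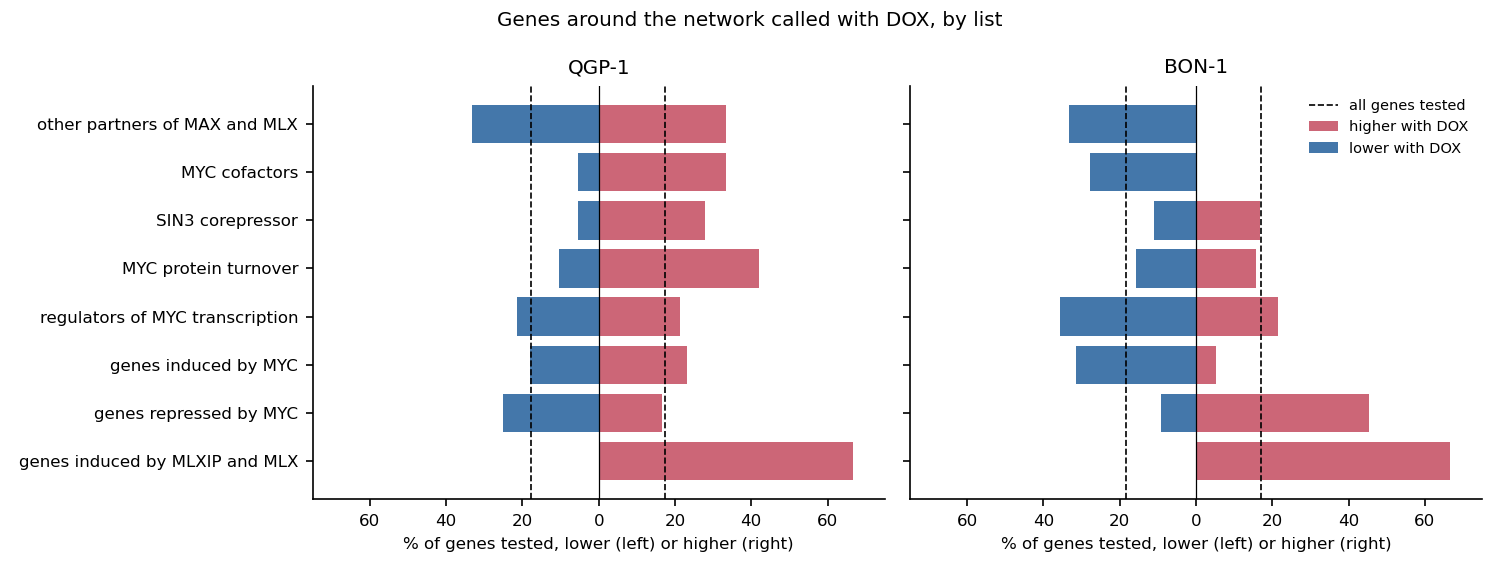
Share of the tested genes of each list that was lower (left, blue) or higher (right, red) with DOX at an adjusted p below 0.05, in QGP-1 and BON-1 cells. Dashed lines mark the same shares over all genes tested, between 17.0% and 18.3%; among BON-1 cells' 38 genes induced by MYC, 12 were lower and 2 higher.

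The scale of the values bears on direction. The 7SK and 7SL RNAs took 71.2–80.3% of the TPM in QGP-1 and 50.9–74.3% in BON-1 libraries. Their share of the raw counts was 3.30–6.38% in QGP-1 and 1.35–3.77% in BON-1 libraries. On log2(TPM + 1) the median of all genes moved by 0.59 with DOX in QGP-1 and by −0.31 in BON-1 cells. On that scale all 9 members with a mean TPM of at least 1 were higher with DOX in QGP-1 cells, MYCL at 0.33 and MLX at 0.33 included, and in BON-1 cells MYC stood at −0.05. Relative to the median of all genes, MYCL (−0.26), MLX (−0.27), MYC (0.31), MAX (0.50) and MXD1 (0.35) kept in QGP-1 cells the direction that they had on counts, as did MYC (0.26), MXD1 (0.45) and MXI1 (0.54) in BON-1 cells. Reads on overlapping genes bear on a few members as well, since MAX overlaps FNTB and MLX overlaps PSMC3IP on the opposite strand and MXD1 overlaps SNRNP27 on its own. Of these neighbours FNTB had log2 fold changes of −1.41 and −0.99, SNRNP27 of 0.09 and 0.13, and PSMC3IP of −0.07 and 0.00, QGP-1 first. Their edgeR adjusted p-values were 0.211 and 0.159, 0.488 and 0.242, and 0.681 and 0.988. MYCL and MLX also have processed pseudogenes, 2 and 1 in the annotation, and how reads shared with these were counted is not given in the sources used here.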

How the data were processed

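RNA was taken from 12 cultures of 2 transduced cell lines, sequenced as stranded mRNA libraries and aligned by the authors with STAR to GRCh38 (the build and tool also stand in the submitters' processing notes). The authors deposited, for each line, raw read counts per gene without normalization, and TPM values, in which counts are divided by a gene length and scaled to a fixed sum. The counting program, its strand setting and the gene lengths are not given in the sources used here.

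Within a line, the deposited counts went into the quasi-likelihood test of edgeR 4.0.16 (R 4.3.3), after its default filter on low counts, with TMM scaling and Benjamini-Hochberg adjustment over all genes, 3 DOX against 3 vehicle libraries, and a threshold of 0.05 with no minimum fold change. One fit of the 12 libraries gave the interaction of line and DOX, and one of the 6 vehicle libraries the difference between the lines. Standard errors (SE) were obtained as |log2 fold change| / √F. CPM are TMM-scaled within a line, or over all 12 libraries where lines are compared. All 10 members passed the filter in each fit. TPM served for levels between genes.

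The members and the gene lists, which were written from general knowledge, were chosen with earlier results of these data known. All members are named, as are all genes of lists of up to 5, and the 2 called genes with the most positive and the 2 with the most negative log2 fold change of each longer list, except that 1 gene so chosen is not reported here. For MYC and the member with the widest change in each line, the 3 genes of highest Pearson correlation are named. DESeq2 1.42.0, limma 3.58.1 on log2(TPM + 1) and log2(TPM + 0.1) where a gene averaged 1 TPM or more, library size scaling, no filter, a minimum of 10 counts in every library, a fold-change minimum, a replicate block, 1 fit of all libraries and leaving out each library served as alternatives. Replicates differed by more than sampling noise (chi-square per gene 5.96 to 30.1). Columns were matched to libraries by name, with 0 columns unused. On simulated counts with 200 genes changed 2-fold, edgeR recovered 170 of 198 tested in QGP-1 cells (8 false among 178 calls), 173 of 198 in BON-1 cells (11 of 184), 138 of 196 for the interaction (7 of 145) and 168 of 198 between the lines (8 of 176). Positions and overlaps come from GENCODE v44, and promoters from RefSeq. No genomic sequence is shown for MYC.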

Additional observations from a re-analysis of the deposited data

Results flagged for a closer look

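A difference in the response to DOX between the lines, tested as the interaction in edgeR at an adjusted p below 0.05, marked 3 of the 10 members, beside 16.7% of all genes. It also marked 18 of the list genes that are named above, and further list genes that are not named. Genes of the longer lists were named for their size of change in 1 line, so that this number says nothing about the lists. Values are log2, the BON-1 response minus the QGP-1 response. MYCN stood at −2.42, MAX at −0.38 and MXI1 at 0.72, as given above.

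Among the genes known to be induced with MLX, ARRDC4 was at 0.56 and TXNIP at 0.49, both higher in BON-1 cells, whereas KLF10 was at −0.33. MGA, a partner of MAX, was at −0.30. Of the cofactors, RUVBL1 was at −0.70 and SMARCB1 at −0.45, and of the SIN3 genes ING1 was at −0.53. Of the turnover genes, PLK1 was at −0.72, USP36 at −0.46 and BTRC at −0.44. The regulators of MYC transcription went both ways, with E2F1 at 0.48 and KLF4 at 0.47 but CTCF at −0.38 and CTNNB1 at −0.36. Of the named genes known to be induced by MYC, MCM5 was at 0.40. Of those known to be repressed, CDKN1C was at 1.53 (SE 0.50, interaction adjusted p = 0.0378 by edgeR), GADD45B at 1.12 and BTG1 at 0.36. In BON-1 cells alone CDKN1C stood at 0.26 (SE 0.55, edgeR adjusted p = 0.750). Over the whole lists, 6 of 39 induced genes were called with a lower and 2 with a higher response in BON-1 cells. Of 13 repressed genes, 0 were lower and 6 higher, beside 7.92% and 8.80% of all genes.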

How the results depend on the processing

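The counts of called members stayed at 6 in QGP-1 cells, 4 in BON-1 cells, 3 for the interaction and 7 between the lines with DESeq2 and with no filter, and no member's call changed with DESeq2. With library size in place of TMM they were 6, 4, 3 and 9, where MAX and MXD1 joined the differences between the lines. Deviations of same-numbered libraries were correlated for some pairs and not for others (−0.161, 0.323 and 0.25 in QGP-1, and −0.141, −0.106 and 0.191 in BON-1 cells), so the numbers were not taken to pair the samples, and the replicate block gave 6, 4, 3 and 8, with MAX added between the lines. A minimum absolute log2 fold change of 1 left 0 members in QGP-1 cells, 1 in BON-1 cells (MYCN), 1 for the interaction (MYCN) and 5 between the lines, and over all genes 360 lower and 183 higher, 447 and 272, 293 and 386, and 2930 and 3498, against 2676 and 2610, 2677 and 2488, 1315 and 1461, and 6022 and 6245 without it. At least 10 counts in every library removes MYCN in BON-1 cells, which had 8 counts in a DOX library, and left 3 members called there and 2 for the interaction. In 1 fit of all libraries QGP-1 cells had 5, without MYCL. Leaving out each library in turn gave 4 to 5 in QGP-1 cells, 3 to 4 in BON-1 cells, 2 to 3 for the interaction and 7 to 8 between the lines. With library size the interaction split into 1823 lower and 1123 higher genes.

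On log2(TPM + 1) and log2(TPM + 0.1), limma called 9 of 9 members tested for QGP-1 and 0 of 8 for BON-1 cells (also 0 at an unadjusted p of 0.05, with MYCN and MYCL under 1 TPM on average), and with the former 91 lower and 9166 higher genes for QGP-1, 229 and 29 for BON-1 cells. The QGP-1 values turned to 0.27 and 0.42 for MYCN, 0.33 and 0.42 for MYCL, 0.59 and 0.65 for MXI1, 0.56 and 0.71 for MNT and 0.33 and 0.35 for MLX. The BON-1 values turned to −0.048 and −0.055 for MYC, −0.28 and −0.30 for MAX and −0.14 and −0.19 for MXD4. With TPM rescaled without the 7SK and 7SL RNAs, a choice made after seeing the data, 5 and 3 members were called and QGP-1 values were 0.027 for MYCN, 0.014 for MYCL, 0.24 for MXI1 and 0.30 for MNT. There MYCL, MLX and MXD3 lost their QGP-1 calls (limma adjusted p = 0.92, 0.452 and 0.0835), MXI1 and MXD4 were called higher (0.0279 and 0.00734), and MYC lost its BON-1 call (0.0778). Ranked by TMM-scaled counts without length, 3 of the 10 members in QGP-1 and 5 of the 10 in BON-1 cells kept their place in the order of levels.

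Small values changed sign too. MNT in QGP-1 cells turned to 0.0078 with library size and 0.0010 with no filter, and lay between −0.11 and 0.080 without 1 library. MXD4 turned to −0.031 with library size in the interaction. Without 1 library, the interaction ranged from −0.077 to 0.11 for MXD4, −0.0033 to 0.15 for MYC, −0.26 to 0.0041 for MYCL and −0.21 to 0.065 for MNT, and MNT in BON-1 cells from −0.21 to 0.068. Except where a change of construction shows it (fewer genes tested, a shifted median), the cause of these changes was not tested. The lowest raw counts of a member in a library were 8 for MYCN, 55 for MXD3 and 62 for MYCL, all in BON-1 cells.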

Other observations

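The genes whose pattern over the 12 libraries was most like that of a member, after the mean of each line was subtracted from log2 CPM, are given as a description. The libraries share depth and treatment, so no test is attached. Among 9090 genes whose mean log2 CPM reached 3 in both lines, MYC was closest to CCDC92 (Pearson r = 0.968), USP10 (r = 0.965) and KIAA1958 (r = 0.963). For MYCN the closest of 9091 genes were ZNF22 (r = 0.977), DNM1 (r = 0.971) and NEK2 (r = 0.966), a mitotic kinase. Their log2 fold changes were −0.56, −0.85 and −0.54 in BON-1 cells, and −0.02, −0.01 and −0.08 in QGP-1 cells. MXD3 was closest to KAT8 (r = 0.959), APEH (r = 0.948) and NME4 (r = 0.945).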
